A study of Mus musculus with 10 samples.

Results

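The mRNA levels of 10 enzymes and carriers that remove superoxide and peroxides were measured by RNA-seq in *db/db* livers. They were chosen by name and function, as the superoxide dismutases *Sod1* and *Sod2*, catalase (*Cat*), the glutathione peroxidases *Gpx1* and *Gpx4*, the peroxiredoxins *Prdx1*, *Prdx3*, *Prdx5* and *Prdx6*, and mitochondrial thioredoxin (*Txn2*), and are 10 of the 15126 genes in the deposited table. All 10 were measured in every library.

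Superoxide leaks from the respiratory chain and from oxidases, and superoxide dismutases convert it to hydrogen peroxide. Catalase removes hydrogen peroxide inside peroxisomes, where fatty acid oxidation produces it, while glutathione peroxidases and peroxiredoxins remove hydrogen peroxide and organic peroxides in the cytosol, mitochondria and other compartments with electrons from glutathione or thioredoxin. The liver is rich in these enzymes, as hepatocytes oxidize fatty acids, metabolize drugs and hold many mitochondria and peroxisomes.

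The values are those of 5 AAV8-Control livers. The mice were *db/db*, the leptin receptor-deficient model of obesity and diabetes, were 10 weeks old, and had received an adeno-associated virus 8 vector encoding eGFP by tail vein 5 weeks earlier. The sample labels name liver as the tissue but also name primary hepatocytes treated with adenovirus. Whole-liver RNA is what the study describes. With a single group, the values describe these livers and carry no test of a condition.

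Levels are given as CPM, a gene's reads divided by the sum over genes in its library and rescaled to a common total. A second scaling, by the median ratio of genes between libraries (median-of-ratios size factors), differs from CPM by factors of 0.970 in liver 4 to 1.05 in liver 1. The order of livers within a gene and the spread between livers are given for CPM, and close ones rest on this choice. Between 19499795 and 35498596 reads per library were counted, with a median of 20769191, and mitochondrial transcripts took 9.92% to 11.9% of them. Hepatocyte markers, among them *Alb*, summed to 100084 to 136418 CPM. Markers of the other cells of the liver were found in all 5 libraries at far lower sums, with 134 to 269.6 CPM for Kupffer cells, 113 to 230.3 CPM for endothelial cells and 227 to 307 CPM for stellate cells. The 7 lymphocyte markers summed to 1.24 to 3.66 CPM. In whole liver, fewer cells of a type and less mRNA per cell cannot be told apart.

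Catalase and *Gpx1*, which both remove hydrogen peroxide, took the most reads of the 10, which also reflects the length of the mRNA, at 3662 ± 225 and 2394 ± 241 CPM (SD, n = 5 livers). *Gpx4* had the fewest reads, at 113 ± 13.8 CPM. Summed over the 10 genes, the level was 8189 to 9097 CPM, which is 0.819% to 0.910% of the reads in these libraries. *Cat* alone made up 40.4% to 44.4% of this sum. In share of reads, with no account of length, *Cat* ranked 25th and *Gpx1* 44th of all genes in the table, and *Gpx4* ranked 1065th. At least 2296 reads per library lay behind any value of a member, so that the spread between livers, and not counting error, sets the precision.

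**Figure D1:**
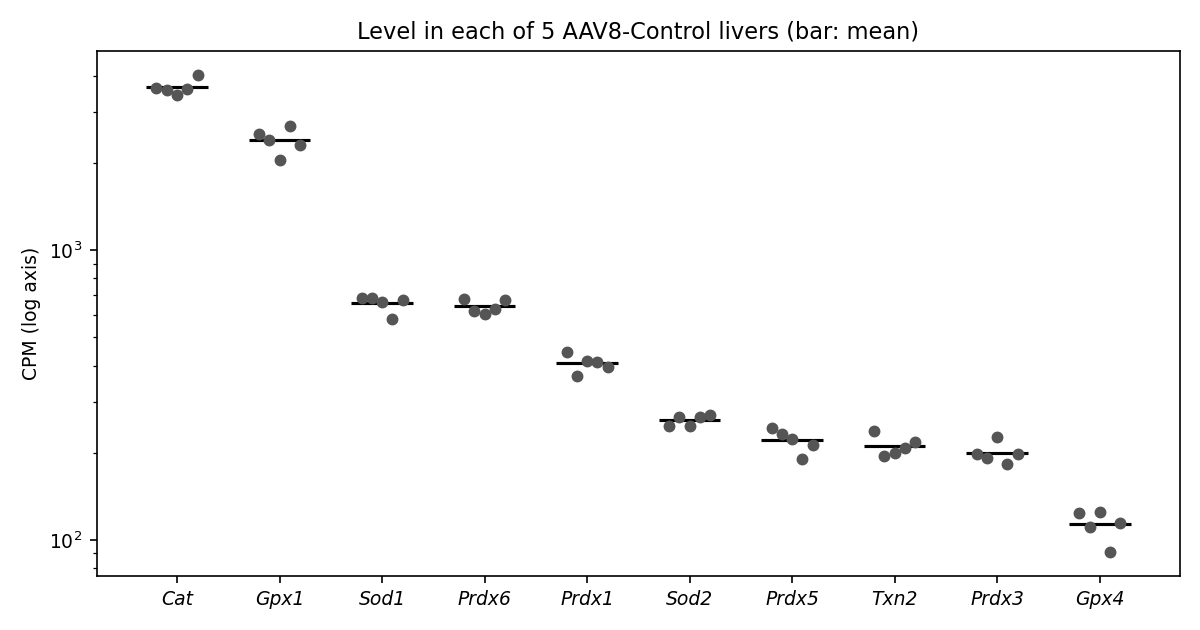
CPM of the 10 genes (log axis) in each of the 5 AAV8-Control livers (points), ordered by mean (bars). The range runs from *Cat*, at 3662 CPM, to *Gpx4*, at 113 CPM, and the values of a gene lie close together beside the distance between the highest and the lowest genes.

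Levels of different genes were compared as CPM per kilobase of the longest principal transcript, since long mRNAs give more reads. By this measure *Gpx1* was highest, at 2233 ± 225 CPM per kilobase (SD, n = 5 livers), followed by *Cat* at 1401 ± 86.0 and *Sod1* at 1024 ± 70.1. The order of these 3 genes held in all 5 livers, with no overlap of their ranges. *Prdx6* came next, at 268 ± 13.8 CPM per kilobase, and lay above the other 3 peroxiredoxins among the members in all 5 livers. *Prdx1*, at 177 ± 12.3, and *Prdx5*, at 175 ± 15.9 CPM per kilobase, had overlapping ranges, and *Prdx1* was above *Prdx5* in 4 of 5 livers. *Prdx3* at 135 ± 11.2, *Gpx4* at 118 ± 14.4 and *Txn2* at 103 ± 8.37 CPM per kilobase followed, each with a range that overlapped that of the gene before it. Within a liver, *Prdx5* was above *Prdx3* and *Prdx3* above *Gpx4* in 5 of 5, and *Gpx4* was above *Txn2* in 4 of 5. *Sod2* was lowest, below *Txn2* with no overlap, at 44.2 ± 1.83 CPM per kilobase of a transcript of 5861 bases.

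The length taken matters for this order. With the union of all annotated exons, a choice made after the data were seen, *Gpx1* (1661 CPM per kilobase), *Cat* (1401) and *Sod1* (165) kept the first 3 places by mean and *Sod2* (25.9) the last. The ranges of *Gpx1* and *Cat* then overlapped, with *Gpx1* above *Cat* in 5 of 5 livers. *Sod1* was then close to *Prdx3* (135), *Prdx1* (134) and *Prdx6* (133), and its range overlapped those of *Prdx3* and *Prdx1*. The principal *Sod1* transcript has 641 bases and its exon union 3970 bases, so its distance to the peroxiredoxins rests on the transcript taken. The place of *Prdx6* above *Prdx1* and *Prdx3* also ended with this length, and *Prdx5* (103 CPM per kilobase) lay below *Prdx3* with no overlap, the reverse of their order by transcript.

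**Figure D2:**
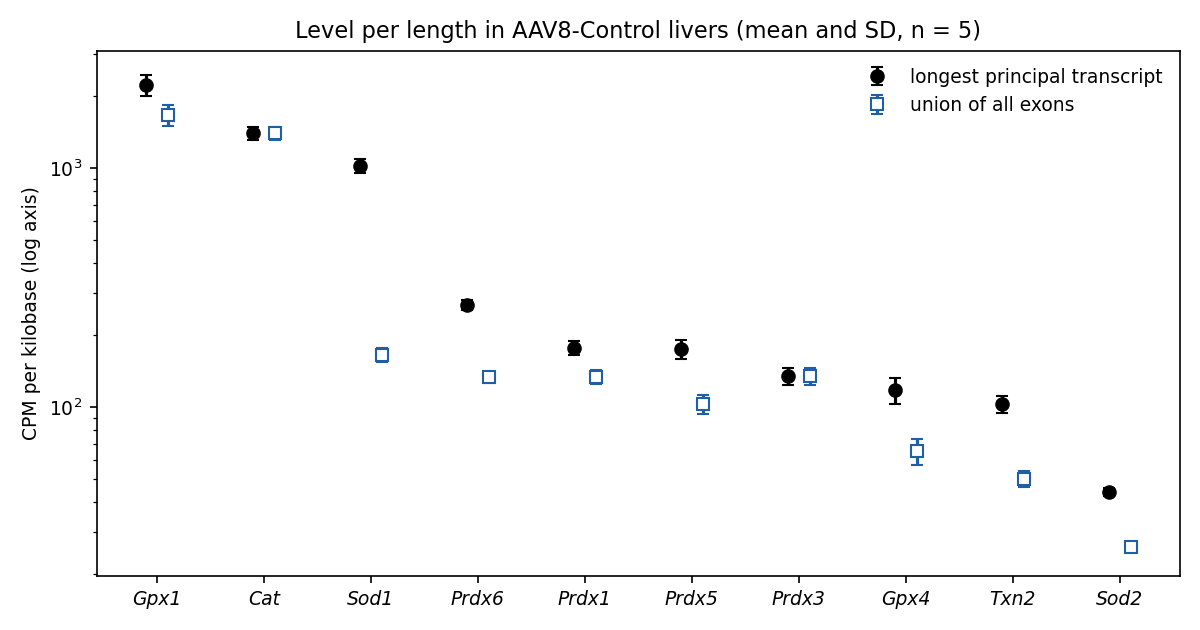
Level per kilobase (log axis, mean and SD of 5 AAV8-Control livers) with the longest principal transcript (black circles) or the union of all exons (open blue squares) as the length. *Gpx1* and *Cat* are highest and *Sod2* lowest by both, while *Sod1* moves from 1024 to 165 CPM per kilobase.

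The superoxide dismutases differ in place and metal, as *Sod1* encodes the copper and zinc enzyme of the cytosol and *Sod2* the manganese enzyme of the mitochondrial matrix. *Sod1*, on the forward strand of chromosome 16 from 90220754 to 90226329 (GRCm38, GENCODE M21), was at 687, 685, 661, 578 and 671 CPM in AAV8-Control livers 1 to 5. Liver 4 lay below the other 4, which were between 661 and 687 CPM. *Sod2* was at 248, 266, 247, 265 and 269.8 CPM in the same livers. With a coefficient of variation of 4.13% in CPM it varied least of the 10 genes, and liver 4 was not low in it. Its place as least variable rests on the CPM scaling, as the size factors lower liver 1 further.

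Catalase, a heme enzyme of peroxisomes, was at 3646, 3583, 3444, 3594 and 4041 CPM in livers 1 to 5. Liver 5 was highest, and the other 4 were between 3444 and 3646 CPM. The coefficient of variation was 6.14%, and 18.4% of the 11041 genes that averaged 1 CPM or more varied less.

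Both glutathione peroxidases are selenoproteins, in which a TGA codon inside the reading frame is read as selenocysteine at the active site. The bases around this codon, with TGA in capitals, show the feature that sets them apart from the other members (GRCm38, GENCODE M21, forward strand). The codon lies in the coding sequence at chr9:108339451-108339453 for *Gpx1* and at chr10:80054737-80054739 for *Gpx4*.
Gpx1: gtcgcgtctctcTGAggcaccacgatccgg
Gpx4: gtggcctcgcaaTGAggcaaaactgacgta
In both, the codon is followed by ggc. *Gpx1*, which reduces hydrogen peroxide in cytosol and mitochondria, was at 2528, 2402, 2046, 2685 and 2306 CPM in livers 1 to 5, highest in liver 4 and lowest in liver 3. *Gpx4*, which reduces lipid peroxides in membranes and protects cells from ferroptosis, was at 124, 111, 125, 90.9 and 114 CPM in the same livers. Liver 4, the highest in *Gpx1*, was the lowest in *Gpx4*. These 2 genes varied more than the other members, with coefficients of variation of 10.1% and 12.2%, and 59.3% of those 11041 genes varied less than *Gpx4*.

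Peroxiredoxins and thioredoxin form a relay, in which a peroxiredoxin cysteine is oxidized by peroxide and then reduced by thioredoxin. *Prdx1*, a cytosolic peroxiredoxin on the forward strand of chromosome 4 from 116685544 to 116700822, was at 445, 368, 414, 411 and 395 CPM in livers 1 to 5. Liver 1 was highest and liver 2 lowest in CPM, and the place of liver 1 above liver 4 rests on this scaling. *Prdx3*, the peroxiredoxin of the mitochondrial matrix, was at 197, 192, 227, 183 and 197 CPM, with liver 3 above the others. *Txn2*, the mitochondrial thioredoxin that reduces PRDX3 protein, was at 238, 195, 199.1, 207 and 217 CPM. Its mean of 211 ± 17.1 CPM (SD, n = 5 livers) and that of *Prdx3*, 199.5 ± 16.6 CPM, are not compared here, as their mRNAs differ in length.

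*Prdx5*, which acts in mitochondria, peroxisomes and cytosol, was at 244, 231, 224, 190.5 and 213 CPM in livers 1 to 5. It was lowest in liver 4, as *Sod1*, *Gpx4* and *Prdx3* were in CPM. It shares 409 exon bases, 19.1% of its annotated exons, with *Trmt112* on the opposite strand, and whether the counting used strand is not given in the sources used here. *Prdx6*, which also has phospholipase activity and takes electrons from glutathione, was at 677, 619, 602, 629 and 671 CPM. Its coefficient of variation in CPM was 5.16%, the lowest after *Sod2*, and 11.5% of those 11041 genes varied less. This rank also rests on the CPM scaling.

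**Figure D3:**
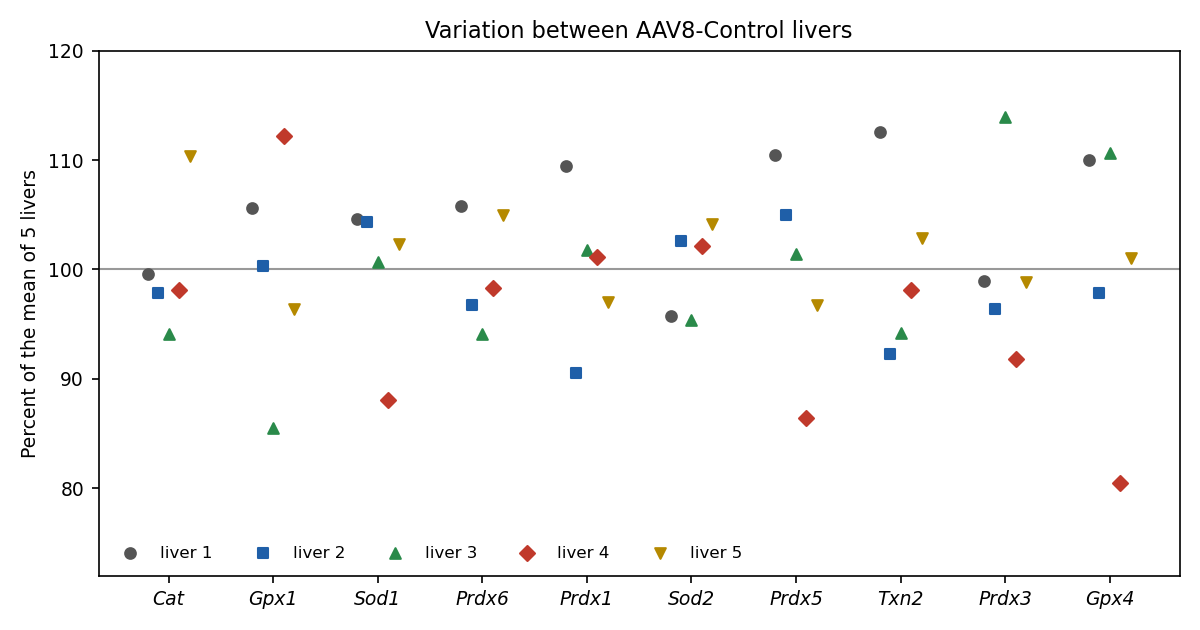
Level of each gene in each AAV8-Control liver as a percent of the mean of the 5 livers, with 1 symbol and colour per liver. In CPM, liver 4 (red diamonds) is the lowest in *Sod1*, *Prdx5*, *Prdx3* and *Gpx4* and the highest in *Gpx1*. Its place in *Prdx3* rests on the CPM scaling.

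*Prdx1* is known as a target of the transcription factor NRF2, which binds antioxidant response elements, and a core of this element was searched in the promoters of the members. A match was found in *Prdx1* and *Sod1*. The bases around it are shown with the core in capitals, from RefSeq on GRCm38.p6, at chr4:116685446-116685494 (forward strand) for *Prdx1* and chr16:90220686-90220734 (forward strand) for *Sod1*.
Prdx1: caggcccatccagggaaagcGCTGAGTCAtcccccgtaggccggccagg
Sod1: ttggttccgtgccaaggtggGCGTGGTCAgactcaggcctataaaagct
The first base of the core lies 133 bases upstream of the *Prdx1* start and 56 bases upstream of the *Sod1* start as RefSeq places them, which in both genes is downstream of the first base given above from GENCODE. The search used TGACNNNGC on both strands from 250 bases before to 50 bases after each start, and 12.4% of the 32851 promoters in the RefSeq table hold it. In *Prdx1* the core overlaps an AP-1 site (TGAGTCA), found in 5.20% of the promoters. Promoters were listed for 9 of the 10 genes, all but *Prdx6*, in 12 entries, 4 of which are starts of *Gpx4* and 2 of these overlap. An NRF1 half-site (GCATGCGC) was matched in 1 entry, of *Gpx4*, and in 2.71% of all promoters. A FOXO site (TGTTTAC) was matched in 0 of the 12 entries and in 3.65% of all promoters. A GC box (GGGCGG) was matched in 11 of the 12 entries, with at least 1 entry of each of the 9 genes, and in 35.7% of all promoters. These matches describe letters in the window and are not evidence of binding.

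Genes that work with these enzymes were read from lists by role, and up to 2 genes with the highest mean CPM in each list are named. Of all genes in the table, 73.0% had a mean of at least 1 CPM, beside which the counts of each list stand. Of 9 measured relatives in the same enzyme families, 6 had a mean of at least 1 CPM. The highest were *Prdx2*, a further cytosolic peroxiredoxin, at 72.8 ± 2.51 CPM, and *Sod3*, the secreted superoxide dismutase, at 44.7 ± 4.12 CPM (SD, n = 5 livers). Of 21 reducing partners, 20 had a mean of at least 1 CPM. *Idh1*, the cytosolic isocitrate dehydrogenase, was at 456 ± 35.2 CPM and *Me1*, malic enzyme, at 343 ± 123 CPM, and both make NADPH. *Me1* ranged from 186 to 522 CPM and had a coefficient of variation of 35.7%, above that of every member. *Txn1*, cytosolic thioredoxin and the electron donor of PRDX1 protein, was chosen for mention after its values were seen. It was at 195 ± 3.45 CPM, with a range of 190.1 to 199.6 CPM and a coefficient of variation of 1.77%.

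Among the enzymes and subunits that produce superoxide or hydrogen peroxide, 22 of 24 measured had a mean of at least 1 CPM. *Uox*, the urate oxidase of peroxisomes, the compartment of catalase, was at 2384 ± 217 CPM (SD, n = 5 livers). Of 17 genes of peroxisome assembly and import, all had a mean of at least 1 CPM, with *Abcd3*, a transporter of the peroxisomal membrane, at 769 ± 68.9 CPM and *Pex19*, an import factor for membrane proteins, at 171 ± 11.9 CPM.

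The enzymes of *Gpx1* and *Gpx4* need selenium, and superoxide dismutases need copper, zinc or manganese. *Selenop*, the plasma selenium carrier made by hepatocytes, was at 7427 ± 606 CPM and *Sephs2*, which makes selenophosphate, at 564 ± 57.7 CPM (SD, n = 5 livers), and 9 of 10 genes of selenocysteine incorporation and selenium supply had a mean of at least 1 CPM. Of 10 measured genes for copper and manganese, all passed this level, with the copper importer *Slc31a1* at 218 ± 16.2 CPM and *Slc39a14*, an importer of manganese, zinc and iron, at 145 ± 13.5 CPM. All 11 regulators of antioxidant genes also passed it. The highest were *Nfe2l1* at 144 ± 13.6 CPM and *Nfe2l2*, which encodes NRF2, at 119 ± 14.3 CPM.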

How the data were processed

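Single reads of 50 bases from poly-A selected RNA were aligned by the authors with STAR 2.0.4b to GRCm38.p2 (Ensembl release 76) and counted on genes with featureCounts 1.4.5, per the submitters' processing notes and the study's methods. The authors deposited CPM per gene and library, in 15236 lines for 15126 genes, and 110 repeated lines were dropped. Dividing by the CPM of 1 read gave whole reads, within 0.01 read, for all values. Means and SD over the 5 AAV8-Control livers were computed in Python 3.11.15 with pandas 2.3.3 and NumPy 2.4.6. Alternatives were median-of-ratios size factors of the recovered reads, each library left out in turn, and the union of exons as the length, all chosen after the data were seen. Lengths and positions came from GENCODE M21 (GRCm38), matched by identifier for 15119 genes.

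The other libraries of the series, every comparison with them and 1 gene that the naming rule would have given are not reported here. The members and lists were chosen with earlier results of these data known. All members were named, and from each list of genes by role up to 2 genes with the highest mean CPM. *Txn1* was added after its values were seen, and cell type markers were given as sums. The listed genes *Gpx5*, *Dao*, *Duox2*, *Sco2* and *Ly6g* were not analysed here. Reads of pseudogenes named after *Gpx4* and *Prdx6* could bear on these genes, and only uniquely aligned reads were counted. The labels do not state whether each library came from a different mouse. The closest libraries differed by a chi-square per degree of freedom of 15.9, so none was a copy of another. This value cannot tell whether separate libraries came from the same mouse, as it measures counting noise only.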

Additional observations from a re-analysis of the deposited data

Results flagged for a closer look

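In 1 of the 10 genes examined, 1 of the 5 AAV8-Control livers stood apart from the other 4 by a gap of over 0.71 of the range (Dixon's criterion, which chance meets in about 1 in 20 groups). *Sod1* in liver 4 was at 578 CPM, and the other 4 livers were at 661 to 687 CPM, a gap of 0.763 of the range. The criterion was applied to CPM only. Division by the size factors over the total, 0.970 in liver 4 and 1.05 in liver 1, raises liver 4 and lowers liver 1. This narrows the gap, so the flag rests on the CPM scaling.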

How the results depend on the processing

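Median-of-ratios size factors moved the mean CPM of the members by -0.16% to 0.086%. The factors are scaled to a geometric mean of 1 over the libraries, so the means hardly move by construction. Values of single libraries shift more, with factors over the total from 0.970 in liver 4 to 1.05 in liver 1. Leaving out each library moved the means by -3.49% to 4.88%, a shift that is bound by construction to stay under 1 SD and so says nothing about stability. With the union of exons as the length, the levels in CPM per kilobase were 165 for *Sod1*, 25.9 for *Sod2*, 1661 for *Gpx1*, 65.5 for *Gpx4*, 134 for *Prdx1*, 103 for *Prdx5*, 133 for *Prdx6* and 50.2 for *Txn2*, each lower than with the longest principal transcript, because the union is longer, and the order of *Prdx3* (135) and *Prdx5* was reversed. No paired analysis was possible because the results are the levels of a single group and come from no test. With 5 livers, the SD is itself imprecise.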
